A study of Mus musculus with 6 samples.

Results

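The genes described here encode the proteins of the cytosolic ribosome. They were taken by symbol, though the choice was made with earlier results of these data known. The rule takes every probe set annotated to exactly 1 gene with a fitting symbol. Such a symbol is Rps or Rpl with a number, a final x, a or l allowed, or Rpsa, Rplp0, Rplp1 or Rplp2. Kinases named Rps6k and pseudogenes were left out. The rule took 100 of the 45101 probe sets on the array, which read 46 genes, 22 of the small and 24 of the large subunit. Of these, 90 probe sets and 43 genes had a mean signal above the 40th percentile of all probe sets (3.58 log2) and were tested, among 27022 probe sets and 13370 genes in all. The other 10 probe sets lay below that level. Among them are the sole probe sets of Rps16, Rpl3l and Rpl39l, and the remaining 7 belong to Rpl27a, Rpl35, Rps18, Rps20, Rps6 and Rpsa, which have tested probe sets too. Ribosomal protein genes read only by probe sets annotated to several genes were not analysed here by name.

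The arrays hold total RNA from whole liver, prepared with TRIzol, of 3 mice lacking sphingosine-1-phosphate (S1P) lyase and 3 wild-type (WT) mice. S1P lyase, the product of Sgpl1, is the enzyme that irreversibly cleaves the signalling lipid S1P. Both groups had a mixed background of C57BL6 and 129sv and received no treatment. The labels name no allele, age, sex, litter or batch, so that any of these that differed between the groups cannot be told apart from genotype. Each array is 1 mouse, and replicate numbers only name the arrays within a group.

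A ribosome joins a small subunit, which reads the mRNA, to a large subunit, which forms the peptide bond. Most of its proteins are present in a single copy per ribosome and are made to match one another and the rRNA. Much of that matching takes place at translation: mRNAs of ribosomal proteins start with an unbroken run of pyrimidines, the terminal oligopyrimidine or TOP motif, through which the kinase mTORC1 and the protein Larp1 control their use. An array measures mRNA, not translation or protein.

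The start regions of these genes are shown first, since the TOP run is the feature by which the mRNAs of the family are known. RefSeq entries of the assembly GRCm38.p6 were found for 40 of the 46 genes, and the longest run of C and T was searched from 30 bases before to 50 bases after the annotated start. The 30-base windows below read 5′ to 3′ on the gene's strand, with that run in capitals. The first 8 genes were higher in knockout by the test described further on, and the last 5 were not called.
Rpsa, chr9:120127781-120127810, plus strand: gcccgTCCTTTCgcgctacccggggacggg
Rplp2, chr7:141447641-141447670, plus strand: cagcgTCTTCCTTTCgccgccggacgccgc
Rps9, chr7:3704030-3704059, plus strand: ccttgTCTCTCTTTgtctcgggcctgagtt
Rpl35, chr2:39005114-39005143, minus strand: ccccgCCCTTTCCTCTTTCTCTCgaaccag
Rpl38, chr11:114668573-114668602, plus strand: cctcgTTCTTTCCCCgttctcttcggttct
Rps25, chr9:44407687-44407716, plus strand: ccgggCTTCCTTTTTTTCCgacatcttagc
Rpl13a, chr7:45128719-45128748, minus strand: caagaCCTCCTCCTTTCCCaggcggctgcc
Rps28, chr17:33824559-33824588, minus strand: gaggaTTCCTgggtaccgcgtgcggtctcg
Rpl27a, chr7:109519186-109519215, plus strand: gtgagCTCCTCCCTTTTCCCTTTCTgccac
Rpl7a, chr2:26910788-26910817, plus strand: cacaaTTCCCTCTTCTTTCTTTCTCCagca
Rpl11, chr4:136053356-136053385, minus strand: ggaagTCTCCCTCTCTCTTCCTgttctcca
Rps6, chr4:86857344-86857373, minus strand: tcgggCCTCTTTTTCgtgacgcctcccagg
Rps27l, chr9:66946059-66946088, plus strand: ctccaCTCCTCTCCactcctccccgccgcc

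Among the windows shown, the run spans the annotated start in Rplp2, Rps9, Rpl35, Rpl38, Rpl27a, Rpl7a and Rps6. In Rpsa, Rps25, Rpl13a, Rps28, Rpl11 and Rps27l it lies wholly before or after the start. Among risen genes not shown, the run of Rps24 lies at positions 39 to 50 and that of Rpl22 at -30 to -26. Both touch an edge of the search. The run of Rpl22 counts as 5 bases, though the bases just before the edge are pyrimidines too. Lengths were counted within the search only, so Rpl22 is among the genes without a run of 8 below. The windows shown are a selection, and how often the run spans the start over all members was not counted. In Rps28 the longest run in the window is only 5 bases. Across the 40 genes the median longest run was 10 bases, beside 6 over 27025 genes with an entry. A run of at least 8 bases was found in 30 of the 40 (75.0%), beside 28.9% of all genes. It was present in 7 of the 10 risen genes with an entry (70.0%) and in 21 of the 27 tested genes that were not called (77.8%). The letters CCGGAAG, on either strand from 250 bases before to 50 after the start, occurred in 20 of the 40 (50.0%), beside 9.12% of all genes. They occurred in 5 of the 10 risen genes and 14 of the 27 that were not called. CTTTCC on either strand, which can lie within a pyrimidine run, occurred in 18 of the 40 (45.0%), beside 26.3% of all genes. These matches are letters in a window, and an annotated start need not be the one used in liver.

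Sgpl1 itself read 2.46, 2.99 and 2.87 log2 in the knockout arrays and 6.65, 6.90 and 6.71 in the WT arrays. It fell by 3.98 log2 (SE 0.16, limma adjusted p = 1.5e-05), as the labels state. Hepatocyte genes were bright in every array: albumin read 14.25 to 14.33 log2 in knockout and 14.31 to 14.33 in WT. Other array measures differed between the groups. The bacterial poly-A control RNAs, added before labelling, were 0.75 log2 brighter in knockout, with all 24 of their probe sets higher in every knockout array. The signal near the 3′ end minus that near the 5′ end was larger in knockout, by 1.01 log2 for Pcx, 0.47 for Gapdh and 0.45 for Actb. Each of these 4 differences has an exact two-sided permutation p of 0.1, the smallest that 3 arrays against 3 can give. Array medians were 0.033 log2 lower in knockout on average.

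Ribosomal protein mRNAs were on the whole higher in knockout liver on the deposited scale, though the direction turned on the poly-A control scale given further on. In the fit over all genes, 11 of the 43 rose, 32 were not called and 0 fell. Over all 13370 genes 10.5% rose and 8.09% fell. A gene is called here at an adjusted p under 0.05 by limma with Benjamini-Hochberg adjustment over all genes, and "rose" and "fell" are used only of called genes. At an unadjusted p under 0.05, 21 of the 43 were higher and 0 were lower. The knockout mean was above the WT mean in 33 of the 43, beside 44.4% of all genes. The median difference, knockout minus WT, was 0.24 log2 over the members and -0.047 over all genes. Single genes ranged from -0.41 for Rps4l to 1.21 for Rps25. In whole liver, more cells of a type and more of an mRNA per cell cannot be told apart.

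All 3 knockout values lay above all 3 WT values in 23 of the 43 genes (53.5%), beside 19% of all genes. They lay below in 2, Rpl11 and Rpl14, beside 21.8% of all genes, and overlapped in the other 18. Rpl14 was read at a mean of 3.91 log2, near the level of the filter. The counts of the subunits were close. In the small subunit 6 of 21 genes rose, with a median difference of 0.24 log2, and in the large subunit 5 of 22, with a median of 0.23. Of the 34 genes read at 10 log2 or more, 10 rose, and their median was 0.24. Of the 9 dimmer ones only Rps25 rose, and their median was 0.21.

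**Figure D1:**
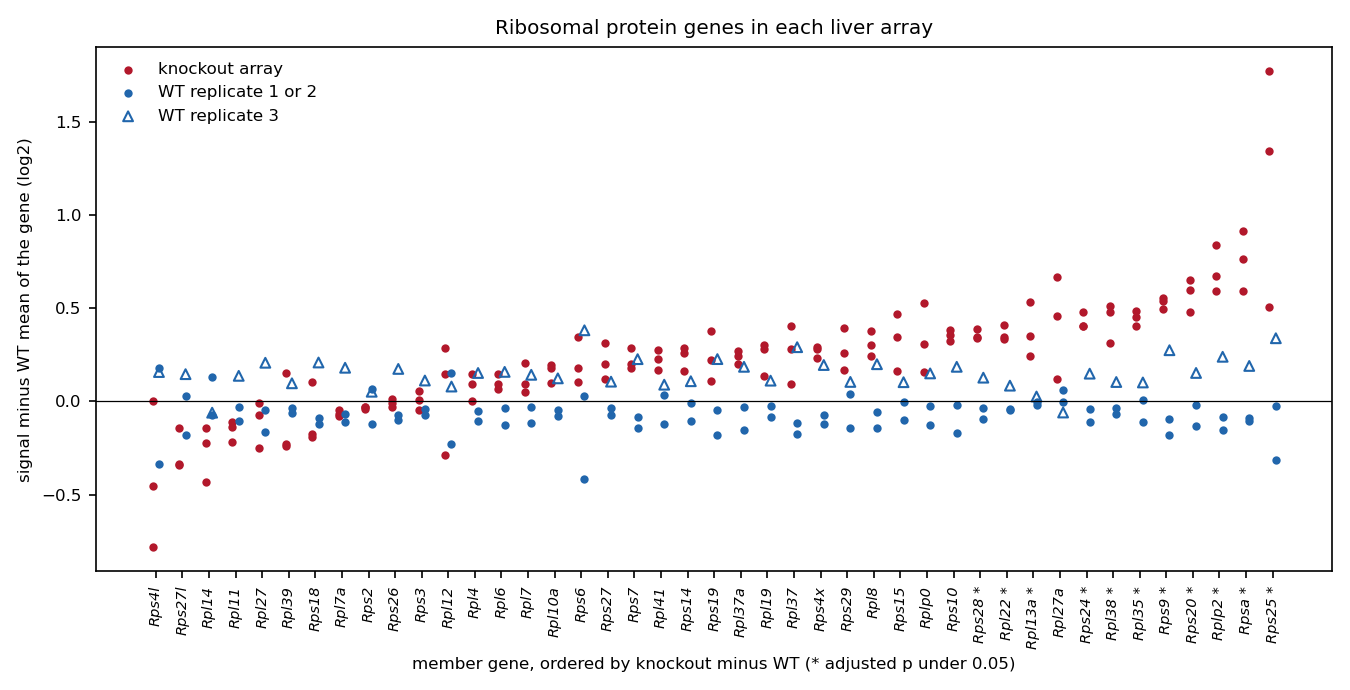
Signal of each of the 43 tested genes in each array, minus the gene's WT mean (log2, vertical axis), with genes ordered by knockout minus WT along the horizontal axis. Red points are the 3 knockout arrays, blue points WT replicates 1 and 2 and open triangles WT replicate 3; asterisks mark the 11 risen genes of the deposited scale, and 0 rose on the poly-A control scale.

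The plot of values by array shows that the WT arrays did not lie evenly below the knockout arrays. WT replicate 3 gave the highest WT value in 38 of the 43 genes (88.4%), beside 36.9% of all genes. Averaged over the 34 brighter genes, the knockout arrays read 11.59, 11.60 and 11.61 log2 and the WT arrays 11.29, 11.29 and 11.51. The 3 knockout livers were thus nearly level, and 1 WT liver lay closer to them than to the other WT livers. WT replicates 1 and 2 were both below every knockout array in 32 of the 43 genes. WT replicate 3 was above the lowest knockout value in 14 of the 34 brighter genes. The SD was larger in WT than in knockout in 32 of the 43, with medians of 0.14 log2 in WT and 0.087 in knockout. The shares of all genes were not computed for these last counts. WT replicate 3 was set apart after its values were seen, so the count without it is not a result about the family.

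The number of genes called depended on single arrays. With WT replicate 3 left out 13 genes rose, and with knockout replicate 3 left out 9 rose. Leaving out knockout replicate 1 or knockout replicate 2 left 4 in each case. Leaving out WT replicate 1 left 3, and leaving out WT replicate 2 left 4. The share of all genes that rose, 10.5% with all 6 arrays, changed as well. It was 6.59%, 5.8% and 9.26% without knockout replicates 1, 2 and 3. Without WT replicates 1, 2 and 3 it was 7.28%, 8.5% and 10.8%. The smaller counts are thus not particular to these genes. The median difference stayed between 0.20 and 0.33 log2 in these 6 fits, and 0 genes fell in any of them. Rpsa, Rplp2 and Rps20 were called in all 6. Of the other 8 risen genes, Rpl35 was called in 3 of the 6, and Rps25, Rpl38, Rps24 and Rpl22 in 2 each. Rps9, Rpl13a and Rps28 were called in 1 each. Rps24, Rpl38 and Rpl22 lost their call without knockout replicate 1, knockout replicate 2, WT replicate 1 or WT replicate 2, and Rpl35 without the first 3 of these. Rps9 and Rps28 kept theirs only without WT replicate 3, and Rpl13a only without knockout replicate 2.

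Among small subunit genes, Rpsa and Rps20 kept their call with any 1 array left out. Rpsa encodes a protein of the small subunit that is also known as the laminin receptor precursor. Its signal was 11.80, 11.65 and 11.48 log2 in knockout and 10.80, 10.79 and 11.08 in WT. Every knockout liver was above every WT liver, by 0.76 log2 on average (SE 0.13, 1.69-fold, limma adjusted p = 0.00558). Its adjusted p was 0.00552 to 0.0301 with 1 array left out.

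Rps20, a protein of the head of the small subunit, read 11.96, 11.79 and 11.90 log2 in knockout and 11.17, 11.29 and 11.46 in WT. The groups did not overlap, and the difference was 0.58 log2 (SE 0.11, 1.49-fold, limma adjusted p = 0.00864). Both risen probe sets of Rps20 carry the x mark, and its only tested probe set without an s or x mark, which is dim, differed by 0.033 log2 (limma adjusted p = 0.850 when genes are read by such probe sets, over a range of 0.00506 to 0.850 across all alternatives). Rps9, which lies near the entry of the mRNA channel, read 11.33, 11.37 and 11.38 log2 in knockout and 10.65, 10.74 and 11.11 in WT. The knockout SD of Rps9 was 0.029 log2, whereas WT replicate 3 stood above the other WT values. The difference was 0.53 log2 (SE 0.13, 1.44-fold, limma adjusted p = 0.0269), and the call held only when WT replicate 3 was the array left out, with adjusted p from 0.00663 to 0.0896 over the 6 fits.

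Rps24, one of the genes mutated in Diamond-Blackfan anaemia, rose by 0.43 log2. It read 11.81, 11.88 and 11.80 log2 in knockout and 11.36, 11.29 and 11.55 in WT (SE 0.10, 1.35-fold, limma adjusted p = 0.0212). Its groups did not overlap, and its adjusted p reached 0.0835 with 1 array left out. Rps28 rose by 0.36 log2 (SE 0.091, 1.28-fold, limma adjusted p = 0.0302), and its adjusted p reached 0.106. Rps25, which viral and some cellular mRNAs need for initiation at internal sites, showed the largest difference of the 43, from a dim probe set. It read 4.87, 6.14 and 5.71 log2 in knockout and 4.05, 4.34 and 4.71 in WT. All knockout values of Rps25 were higher, but they spread widely, and the difference was 1.21 log2 (SE 0.31, 2.31-fold, limma adjusted p = 0.0321). The call was lost when knockout replicate 2, knockout replicate 3, WT replicate 1 or WT replicate 2 was left out, with adjusted p up to 0.0984.

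In the large subunit, the highest rise was that of Rplp2, an acidic protein of the stalk that recruits elongation factors. It read 11.98, 11.81 and 11.72 log2 in knockout and 10.98, 11.05 and 11.37 in WT. The groups did not overlap, and the difference was 0.70 log2 (SE 0.13, 1.63-fold, limma adjusted p = 0.00867). Rplp0, on which the stalk is built, read 11.54, 11.69 and 11.91 log2 in knockout and 11.36, 11.26 and 11.53 in WT. Its groups did not overlap either, though knockout replicate 1 and WT replicate 3 were almost level. The difference for Rplp0 was 0.33 log2 (SE 0.12, limma adjusted p = 0.101), and it was not called.

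Rpl35, which lies beside the exit of the peptide tunnel, read 11.49, 11.46 and 11.41 log2 in knockout and 11.01, 10.89 and 11.10 in WT. Rpl38, required in mouse embryos for translation of Hox mRNAs, read 12.42, 12.45 and 12.25 log2 in knockout and 11.90, 11.87 and 12.04 in WT. Neither gene had overlapping groups. Rpl35 rose by 0.45 log2 (SE 0.10, 1.36-fold, limma adjusted p = 0.0154) and Rpl38 by 0.43 (SE 0.10, 1.35-fold, limma adjusted p = 0.0182). With 1 array left out, the adjusted p reached 0.0616 for Rpl35 and 0.0774 for Rpl38.

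Rpl13a, which can leave the ribosome to hold back translation of inflammatory mRNAs, read 12.34, 12.05 and 12.16 log2 in knockout and 11.80, 11.79 and 11.83 in WT. Rpl22, needed for T cell development in mice, read 11.54, 11.48 and 11.47 log2 in knockout and 11.09, 11.09 and 11.22 in WT. All knockout values of both genes lay above all WT values. Rpl13a rose by 0.37 log2 (SE 0.10, 1.30-fold, limma adjusted p = 0.0353) and Rpl22 by 0.36 (SE 0.089, 1.29-fold, limma adjusted p = 0.0277). The adjusted p reached 0.108 for Rpl13a and 0.0918 for Rpl22 with 1 array left out.

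Several members that are well known for other reasons were not called. Rps6, the substrate of the S6 kinases, read 6.82, 6.89 and 7.05 log2 in knockout and 6.30, 6.74 and 7.09 in WT. The WT livers spanned the knockout range, and the difference was 0.21 log2 (SE 0.20, limma adjusted p = 0.481). The probe set of Rps6 is much dimmer than those of the 34 members read at 10 log2 or more. How well it reads the mRNA was not tested. Rps19, another gene of Diamond-Blackfan anaemia, read 10.49, 10.60 and 10.75 log2 in knockout and 10.20, 10.33 and 10.60 in WT, with a difference of 0.24 (SE 0.13, limma adjusted p = 0.246). Rps19 in WT replicate 3 lay within the knockout range. Rpl11, which binds Mdm2 when ribosome assembly is disturbed, read 10.85, 10.96 and 10.94 log2 in knockout and 11.04, 10.97 and 11.21 in WT. Its knockout values were all lower, by 0.15 log2 on average (SE 0.10, limma adjusted p = 0.314), with knockout replicate 2 and WT replicate 2 almost level.

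Rpl27a and Rps10 had the largest positive differences among the genes that were not called, at 0.42 log2 (SE 0.15, limma adjusted p = 0.0949) and 0.36 (SE 0.11, adjusted p = 0.0559). All 3 knockout values of Rpl27a were higher, between 7.08 and 7.62 log2 against 6.90 to 7.01 in WT. The values of Rps10 were 11.95 to 12.01 log2 in knockout and 11.46 to 11.81 in WT, also without overlap. The genes nearest to no difference were Rps3, at 0.0075 log2, and Rps26, at -0.0085.

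Paralogue pairs could be compared by their differences. Rps27 and Rps27l encode near relatives, and Rps27l is known as a p53 target. Rps27 read 5.67, 5.55 and 5.47 log2 in knockout and 5.28, 5.32 and 5.46 in WT, and Rps27l read 10.02, 10.02 and 10.21 in knockout and 10.18, 10.39 and 10.50 in WT. The differences were 0.21 log2 for Rps27 (SE 0.11, limma adjusted p = 0.221) and -0.27 for Rps27l (SE 0.12, limma adjusted p = 0.150). Neither was called. Rps27 has only 1 probe set, much dimmer than that of Rps27l, and how well it reads the mRNA was not tested. The 3 probe sets of Rps27l differed by -0.23, -0.27 and -0.38 log2. The first and the last of these had all knockout values below all WT values. The last had an adjusted p of 0.0515 in limma's fit over probe sets, and none was called. Rps4x read 11.59 to 11.65 log2 in knockout and 11.24 to 11.55 in WT, and differed by 0.27 (SE 0.11, limma adjusted p = 0.123). Its relative Rps4l read 6.91, 6.58 and 7.37 log2 in knockout and 7.03, 7.54 and 7.52 in WT, and differed by -0.41 (SE 0.22, limma adjusted p = 0.232) with overlapping groups. Whether the members of a pair differ from each other was not tested.

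Many members were read by several probe sets. Of the 90 tested, 31 rose and 0 fell, beside 10.1% and 7.82% of all 27022 probe sets. At an unadjusted limma p under 0.05, 47 were higher and 2 lower. The median difference was 0.27 log2, beside -0.043 over all probe sets. All knockout values were above all WT values in 52 of the 90, beside 18.8% of all probe sets, and below in 4, beside 21.2%. Leaving out knockout replicate 1, knockout replicate 2, WT replicate 1 or WT replicate 2 left 10, 9, 10 and 11 risen probe sets. The count was 23 with knockout replicate 3 left out and 36 with WT replicate 3 left out. The shares of all probe sets in these fits are not given here.

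Affymetrix marks probe sets that can bind related transcripts by their suffix, and among the members the share that rose differed with it. Of 39 tested probe sets marked _x_at, whose probes may match other sequences, 21 rose (53.8%), with a median difference of 0.37 log2. Of 25 marked _a_at, which read several transcripts of 1 gene, 4 rose, with a median of 0.24. Of 23 with no mark, 4 rose, with a median of 0.12. The remaining 3, marked _s_at, held 2 that rose. Several of the risen _x_at probe sets read the same gene, with 4 each for Rpl35 and Rps24. Shares over all probe sets of each suffix were not computed. Signal differed with the suffix as well: the median level was 5.27 log2 for unmarked probe sets, 11.24 for _a_at and 11.11 for _x_at. Of the 57 probe sets at 10 log2 or more 23 rose (40.4%), and of the 33 dimmer ones 8 rose (24.2%), so suffix and level were not separated for the unmarked probe sets. Ribosomal protein genes have many processed pseudogene copies, so signal of a marked probe set may be shared with such copies, and its part in the result was not tested. When genes were read only by probe sets without an s or x mark, 38 members could be tested, 5 rose and 0 fell by limma, beside 10% and 8.24% of all genes. The 5 were Rpsa, Rplp2, Rps25, Rps28 and Rpl41. Rpl41 was read there by a dim probe set with a mean of 3.82 log2, near the level of the filter. Its brightest probe set, marked _x_at, differed by 0.22 log2 and was not called. The genes that lost their call there were Rps20, Rps24 (-0.14 log2), Rps9 (0.31), Rpl35 (0.36), Rpl13a (0.18) and Rpl22 (0.12), and Rpl38 has no such probe set.

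**Figure D2:**
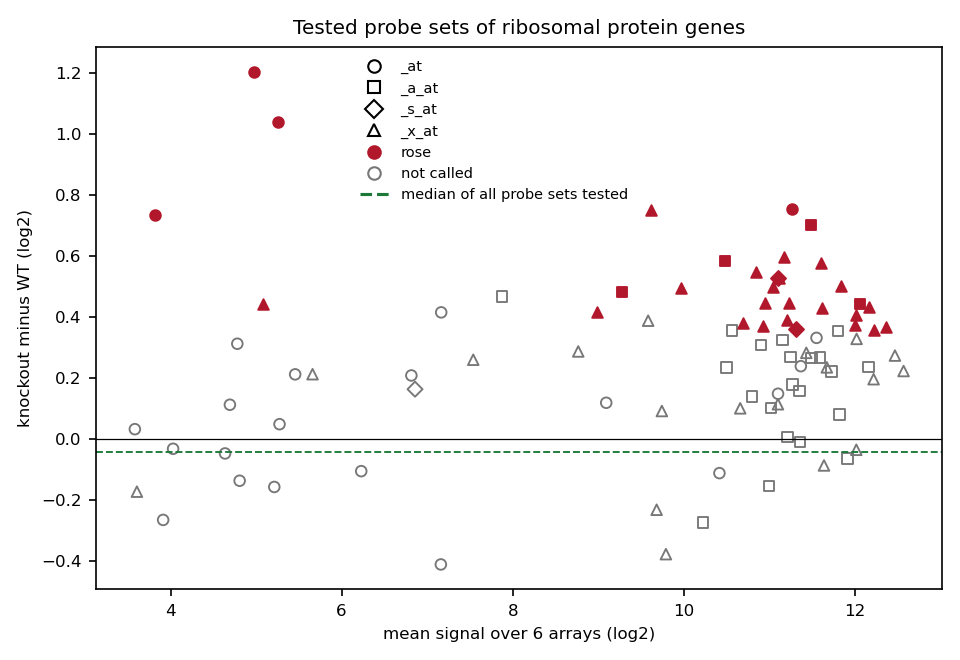
Difference between knockout and WT (log2, vertical axis) against the mean signal over the 6 arrays (log2, horizontal axis) for the 90 tested probe sets. The symbol gives the suffix, filled red symbols rose and open grey ones were not called, on the deposited scale; 0 of them rose on the poly-A control scale. The dashed line is the median of all probe sets, -0.043.

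Probe sets of 1 gene did not always move alike. Among 20 genes with more than 1 tested probe set, every one rose in Rps28 (3 of 3), some rose in 13 genes and none in 6. No gene had probe sets called in opposite directions. Rps24 had 4 of 6 risen, Rpl35 4 of 5 and Rps10 3 of 6. The 4 risen probe sets of Rps24 all carry the x mark, and the other 2, unmarked and dim, differed by -0.031 and -0.14 log2. In 7 genes the brightest probe set was not called but another rose: Rpl27, Rpl37a, Rpl41, Rps10, Rps14, Rps29 and Rps3.

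In Rps3, a protein of the mRNA entry channel, the probe sets differed widely. Its brightest probe set read 11.16, 11.22 and 11.26 log2 in knockout and 11.13, 11.17 and 11.32 in WT, a difference within the spread of the arrays. A dim probe set of Rps3 read 5.83, 5.76 and 5.72 log2 in knockout and 4.49, 4.68 and 5.03 in WT, and rose by 1.04 (SE 0.15, limma adjusted p = 0.00348 over probe sets). The remaining probe set of Rps3 differed by -0.16 log2. A further 110 probe sets are annotated to several genes of which at least 1 is ribosomal by the same rule. They are not counted above. Of 102 that were tested, 24 rose (23.5%) and 0 fell by limma (54 higher and 1 lower at an unadjusted p under 0.05), with a median difference of 0.27 log2. Over all probe sets tested, 10.1% rose and 7.82% fell.

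The direction of the family rested on what the arrays were scaled to. As deposited, after quantile normalization, after median centring and after centring on hepatocyte markers, 9 to 11 of the 43 genes rose, 0 fell and the median was positive. With each array centred on its poly-A controls, 0 rose and 26 fell by limma, beside 2.82% and 75.7% of all genes, and the median was -0.51 log2. That scale moved the median of all genes to -0.80 log2. Because the same amount is subtracted from every difference, the gap between the members' median and that of all genes cannot change on this scale. On it, Rpsa differed by 0.0073 log2 and Rps25 by 0.46, while the other 9 genes called as risen on the deposited scale had negative differences, from -0.047 for Rplp2 to -0.39 for Rpl22 and Rps28. The 3 array probe sets for 18S rRNA, the RNA of the small subunit, differed by 0.11, 0.16 and -0.066 log2 as deposited (exact permutation p = 0.6, 0.5 and 0.4). They read the same RNA at unlike levels, with knockout means of 7.13, 7.38 and 13.23 log2. How well they follow its amount was not tested.

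**Figure D3:**
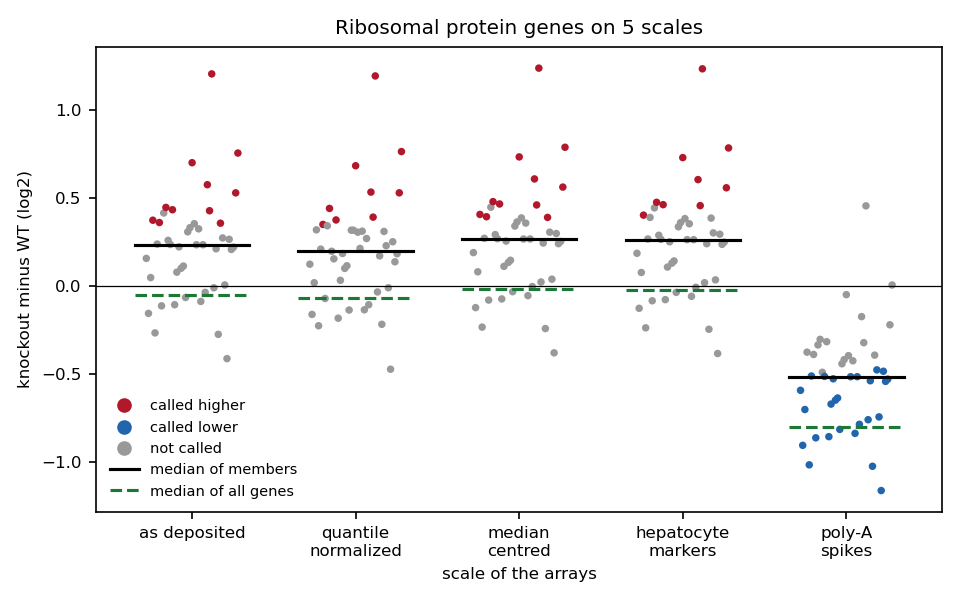
Difference between knockout and WT (log2, vertical axis) of the 43 genes on 5 scales of the arrays (horizontal axis), each point a gene. Red points were called higher, blue points called lower and grey points not called; black bars are the members' medians and dashed green bars the medians of all genes. On the first 4 scales the members' median is positive, and on the poly-A control scale it is -0.51, where 26 genes were called lower.

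Other genes of ribosome making and translation were read from lists chosen by function. Of 4 ribosomal proteins whose symbols do not meet the rule, 2 rose: Fau, which encodes a small subunit protein fused to a ubiquitin-like domain, by 0.46 log2 (SE 0.12, limma adjusted p = 0.0285), and Rps3a1 by 0.42 (SE 0.12, limma adjusted p = 0.0468). Rpl22l1, the relative of Rpl22, was not called. Fau kept its call only without knockout replicate 3 or WT replicate 3, and Rps3a1 only without WT replicate 3, with adjusted p of up to 0.0979 and 0.143. The elongation factors and other mRNAs with a TOP run were also mostly higher on the deposited scale and lower on the poly-A control scale. Of 22 tested, 5 rose (22.7%) and 1 fell (4.55%), beside 10.5% and 8.09% of all genes. The median was 0.32 log2, and all knockout values were higher in 13 (59.1%), beside 19% of all genes.

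The 4 TOP mRNAs with the smallest adjusted p were Vim, Gas5, Pabpc1 and Eef1b2. Vim, an intermediate filament of mesenchymal and blood cells, rose by 2.09 log2 (SE 0.20, limma adjusted p = 0.000521). Gas5, a host transcript of small nucleolar RNAs, rose by 0.61 (SE 0.14, limma adjusted p = 0.0185). Only Vim of these 4 was called in all 6 fits with 1 array left out. Gas5 lost its call without knockout replicate 1 or knockout replicate 2. The list's count of risen genes was 1 with knockout replicate 1 or knockout replicate 2 left out and 2 with WT replicate 1 or WT replicate 2 left out. It was 4 when knockout replicate 3 was the array left out and 9 when it was WT replicate 3. Across these 6 fits, 5.8% to 10.8% of all genes rose.

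**Figure D4:**
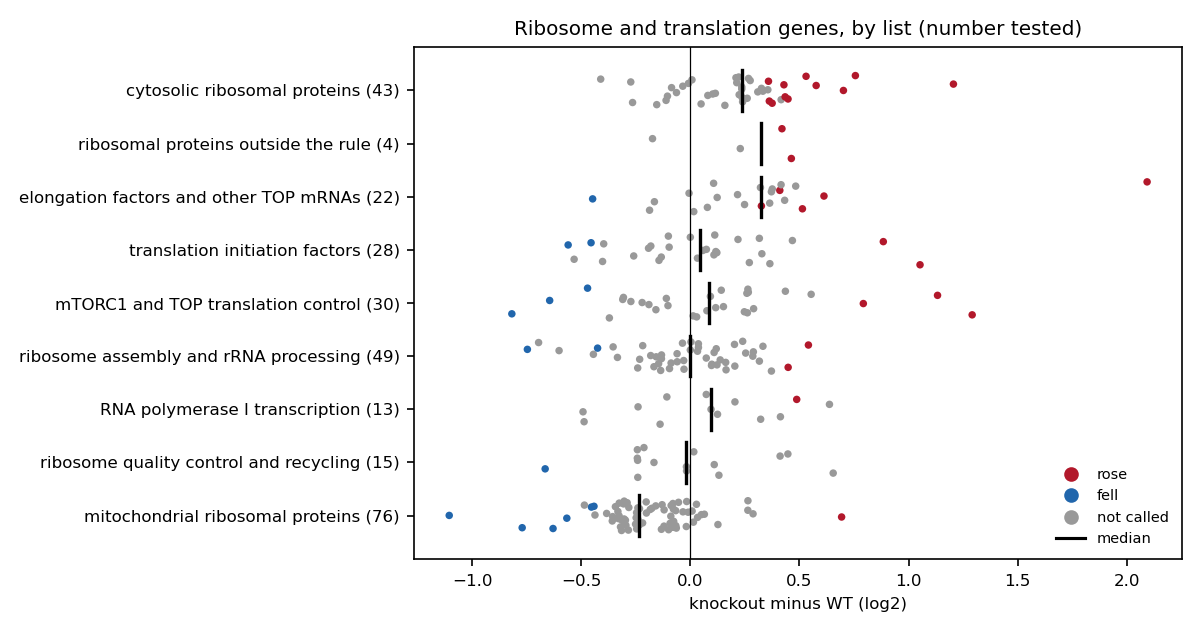
Difference between knockout and WT (log2, horizontal axis) for each tested gene of 9 groups (vertical axis, number tested in brackets), on the deposited scale. Red points rose, blue points fell, grey points were not called and bars are medians, which run from 0.32 for both the ribosomal proteins outside the rule and the TOP mRNAs to -0.23 for the mitochondrial ribosomal proteins; on the poly-A control scale every one of these medians is negative.

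Among 49 genes of ribosome assembly and rRNA processing, 2 rose and 2 fell (4.08% each, below the shares of all genes), and the median difference was -1.8e-05 log2. Over the 6 fits with 1 array left out, 1 to 4 of them rose and 1 to 3 fell. Sdad1, an assembly factor of the large subunit, rose by 0.54 log2 (SE 0.10, limma adjusted p = 0.0103), and Rcl1, which acts in 18S rRNA processing, fell by 0.75 (SE 0.15, limma adjusted p = 0.0125). Both were called in all 6 fits with 1 array left out. Of 13 genes of RNA polymerase I transcription, 1 rose, Tcof1, by 0.49 log2 (SE 0.10, limma adjusted p = 0.0141), and 0 fell (3 higher and 1 lower at an unadjusted limma p under 0.05). The share of that list that rose was 7.69%, beside 10.5% of all genes. Tcof1 lost its call when knockout replicate 1 was left out, and 3 genes of the list rose when WT replicate 3 was left out. The median of that list was 0.095 log2, but -0.11 without WT replicate 1 and -0.023 without knockout replicate 3.

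Regulators of translation were called about as often as all genes, of which 10.5% rose and 8.09% fell. Of 28 initiation factors 2 rose and 2 fell (7.14% each), with a median of 0.045 log2, and of 30 genes around mTORC1 and TOP control 3 rose and 3 fell (10% each), with a median of 0.084. With 1 array left out, 0 to 3 initiation factors rose and 0 to 1 fell, and 1 to 4 of the mTORC1 genes rose and 0 to 3 fell. Myc, which drives transcription of ribosome genes, rose from 5.42, 5.44 and 5.20 log2 in WT to 6.09, 6.12 and 6.22 in knockout, by 0.79 (SE 0.12, limma adjusted p = 0.00334). It was called in all 6 fits with 1 array left out. Rragd, another gene of the mTORC1 list, rose by 1.13 log2 (limma adjusted p = 0.0135). Ddit4, an inhibitor of mTORC1, rose by 1.29 log2 (SE 0.27, limma adjusted p = 0.0151), and Rheb, its activator, fell by 0.64 (SE 0.14, limma adjusted p = 0.0153). Rragd, Ddit4 and Rheb each lost their call without knockout replicate 1 or knockout replicate 2. Whether mTORC1 activity differed was not tested. Of 15 genes of ribosome quality control, 0 rose and 1 fell by limma (2 higher and 1 lower at an unadjusted p under 0.05), and that gene, Gspt1, was called in 2 of the 6 fits with 1 array left out.

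The ribosomal proteins of mitochondria had a median difference of -0.23 log2, beside 0.24 for the cytosolic ones and -0.047 for all genes. Of 76 tested, 1 rose (1.32%, beside 10.5% of all genes) and 6 fell (7.89%, beside 8.09%), so the share that fell was near that of all genes. All knockout values were below all WT values in 34, beside 21.8% of all genes, and above in 4, beside 19%. Mrpl49 fell by 1.10 log2 (SE 0.17, limma adjusted p = 0.00389), from 7.35, 7.26 and 7.52 in WT to 5.93, 6.50 and 6.39 in knockout. Mrpl16 fell by 0.77 log2 (SE 0.15, limma adjusted p = 0.0106), Mrpl14 by 0.63 and Mrpl42 by 0.57, and all 4 were called in all 6 fits with 1 array left out. The poly-A control scale subtracts 0.75 log2 from every difference, so it could only make these falls larger and does not check their direction.

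Markers of other cells moved with genotype beside these genes. All 8 neutrophil markers rose, by 1.29 to 5.17 log2, with the sum of their 8 log2 signals between 76.7 and 79.8 in the knockout arrays and between 43.5 and 46.0 in the WT arrays. All 4 tested B cell markers rose, with sums of 24.8 to 26.4 against 17.2 to 17.4. Of 6 Kupffer cell markers 4 fell, with sums of 36.1 to 39.1 against 44.9 to 46.5. Of 3 tested T and NK cell markers 2 rose, with sums of 17.0 to 17.5 against 13.5 to 14.7, and of 2 erythroid markers 1 rose, with a median of 1.09 log2 and sums of 14.54 to 16.42 against 12.98 to 13.59. Of 4 stellate cell markers 2 fell, with sums of 25.3 to 25.7 against 26.8 to 28.4, and of 4 endothelial markers 1 rose, with sums of 30.1 to 31.1 against 28.5 to 29.8. None of 3 cholangiocyte markers was called by limma, also at an unadjusted p under 0.05. The proliferation genes Mki67 and Top2a rose by 1.89 and 1.75 log2, 2 of 3 tested. Of 7 hepatocyte markers 2 fell and 0 rose by limma (2 lower and 1 higher at an unadjusted p under 0.05), and their mean differed by -0.029 log2 (exact permutation p = 0.8). The part of these cells, of the poly-A control difference and of the 3′ to 5′ difference in the ribosomal protein values was not tested.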

How the data were processed

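The 6 Affymetrix mouse arrays, 1 per liver, were compared by genotype. The authors deposited log2 values, from 1.68 to 14.33, and that scale was taken from their range. MAS5 is named without a version in the submitters' processing notes. The sources used here do not give how background, scale and summary were handled. Without detection calls a low value may be background, and folds of dim genes may be understated. Arrays carry no read depth, and 3 arrays per group limit the precision.

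Probe sets were named from the platform annotation (34958 with 1 symbol, 932 with several, 9211 with none listed). Control probe sets (64) and those whose mean lay under the 40th percentile were left out, and each gene was read by its brightest tested probe set with 1 symbol. All 100 ribosomal probe sets matched a RefSeq gene ID with the same symbol. Groups were compared with lmFit and eBayes with an intensity trend in limma 3.58.1 (R 4.3.3), two-sided, with Benjamini-Hochberg adjustment over all genes, or over all probe sets where probe sets are described. Single array measures were compared by exact permutation. The fit was tested on simulated data. P-values measure the spread between mice.

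The members, the lists and the markers were chosen with earlier results of these data known. Values in every array are given for the 8 risen genes with the largest difference, for members known from other work and for tested paralogues. Up to 4 genes with the smallest adjusted p are named from each list. Rps28, Rpl27a, Rps10, Rps3, Rps26, Rps4x and the markers were named after their values were seen. Motifs were searched in RefSeq promoter windows.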

Additional observations from a re-analysis of the deposited data

How the results depend on the processing

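No paired analysis was possible because the labels carry no replicate numbers shared by the groups. In all, 16 alternatives were tried. With arrays centred on the poly-A controls, 0 ribosomal protein genes rose and 26 fell, 0 probe sets rose and 46 fell, and the medians were -0.51 log2 for the members and -0.80 for all genes. Differences that turned negative on that scale were Rplp2 -0.047, Rps20 -0.17, Rps9 -0.22, Rpl35 -0.30, Rpl38 -0.31, Rps24 -0.32, Rps6 -0.54, Rplp0 -0.42, Rpl13a -0.37, Rps19 -0.51, Rpl22 -0.39 and Rps27 -0.54 among members. Among other genes they were Fau -0.29, Rps3a1 -0.33, Rpl22l1 -0.52, Sdad1 -0.21, Eif6 -0.30, Tcof1 -0.26, Taf1c -0.11, Polr1d -0.34, Gas5 -0.14, Pabpc1 -0.34, Eef1b2 -0.24, Eif2ak4 -0.094 and Mdm2 -0.34. The list medians that turned were -0.42 for ribosomal proteins outside the rule, -0.65 for RNA polymerase I, -0.43 for TOP mRNAs, -0.70 for initiation factors and -0.67 for mTORC1 control. This scale subtracts 0.75 log2 from every difference.

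With probe sets that carry an s or x mark left out, 5 member genes rose, Rps20 differed by 0.033 log2, and Rps24 (-0.14), Polr1d (-0.13) and the RNA polymerase I median (-0.13) turned negative; there other probe sets read those genes. With 1 array left out, that median was -0.11 (without WT replicate 1) to 0.13. In the filter at the 60th percentile and with array quality weights, 1 member probe set fell, of Rps27l; the cause was not tested. With 1 array left out, 3 to 13 member genes and 9 to 36 member probe sets rose and 0 fell. In these fits the members' median was 0.20 to 0.33 log2 and Sgpl1 differed by -4.08 to -2.86. The -2.86 came without WT replicate 2, where the other probe set of Sgpl1 became the brighter and read the gene. Under both filter settings, the other scales, a fit without the trend or with array weights, and genes read by the mean over their probe sets, 9 to 14 member genes rose and 0 fell. Outside the poly-A scale, 606 of 729 values of the 49 named genes kept direction and call, 114 lost the call, 7 gained it and 2 reversed. The poly-A difference cannot be told apart from genotype, and no array measure here gives the amount of RNA per cell.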
